A study of Mus musculus with 4 samples.

Results

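The comparison described here set Chd7 knockout G1ER cells against wild-type G1ER cells, both after 24 h of beta-estradiol. It rests on 2 of the 4 libraries of the study, the columns of the deposited table that the labels tie to the knockout at 24 h and to wild type at 24 h. The 2 libraries were chosen by their labels alone, and 8964 of the 23936 gene rows were compared, those whose mean over all 4 libraries reached 1 FPKM. FPKM counts fragments for each kilobase of a transcript and scales them to the fragments mapped in a library.

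The groups were Chd7-/- G1ER cells after 24 h of estradiol and wild-type G1ER cells after 24 h of estradiol. Chd7-/- cells at 0 h and wild-type cells at 0 h, in libraries that the 24 h comparison does not use, are given beside it. G1ER is an erythroblast line of the mouse without GATA1 of its own that carries a fusion of GATA1 with a part of the estrogen receptor, and all 4 groups share that background. All cultures grew with erythropoietin and medium conditioned with stem cell factor. Each group was 1 library, from ribosomal RNA-depleted total RNA. The treatment label reads estradiol for every library, and the time was taken from the titles. How the knockout was made, and whether it is 1 clone, is not given in the sources used here, so clone and genotype cannot be told apart.

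CHD7 is a chromodomain helicase, an enzyme that uses ATP to move nucleosomes at promoters and enhancers. GATA1 is the transcription factor that starts red cell maturation. When estradiol lets the GATA1 fusion act, these cells stop behaving like progenitors, lower Gata2 and Kit, and turn on globin, heme synthesis and membrane skeleton genes. The title of the series also names RUNX1, a transcription factor of blood cells.

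With 1 library a group there was no replicate check and no p-value. Differences are log2 ratios of FPKM + 1, knockout minus wild type, which understate the change of low genes, and the words higher and lower, where genes are counted as called, mean at least 2-fold (a log2 ratio of 1 or -1). Steps in the low FPKM values put the depth near 16.6 M fragments in the knockout library and 19.02 M in the wild-type library at 24 h (M, mega). The median 95% half-width of a log2 ratio from counting alone was 0.26 for genes averaging 1 to 2 FPKM, 0.20 from 2 to 10, 0.12 from 10 to 100 and 0.054 above. These intervals leave out the spread between cultures. Rn45s, the row of the ribosomal RNA precursor, stood at 2738 FPKM in knockout and 2651 FPKM in wild-type cells.

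The erythroid label held in both 24 h libraries. Klf1, a red cell transcription factor, stood at 116 FPKM in knockout and 99.2 FPKM in wild-type cells, and the globin, Alas2 and Slc4a1 values are given below. The Chd7 row was listed at 0 in all 4 libraries, and so were Hmgcs1, Insig1 and Phgdh, genes in wide use among cells, picked with their values in view. A 0 in this table is therefore no proof of absence, and the knockout label has no check from the targeted gene.

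The contrast can be read first from 3 genes. Alas2, the red cell enzyme that starts heme synthesis, was higher in the knockout, as was Csf2rb2, a beta chain of the mouse interleukin-3 receptor, by a wider margin, and Coro1a, an actin-binding coronin of white blood cells, was lower. Their promoter windows from RefSeq (GRCm38.p6), 250 bases before to 50 bases after the start, are printed 5′ to 3′ on the strand of the gene because these 3 genes stand for the directions seen below. Capitals mark each match to a GATA motif (AGATAA or AGATAG or TGATAA or TGATAG, on both strands). Alas2 lies on the + strand at chrX:150547167-150547466, Csf2rb2 on the - strand at chr15:78305672-78305971 and Coro1a on the - strand at chr7:126704767-126705066.
Alas2: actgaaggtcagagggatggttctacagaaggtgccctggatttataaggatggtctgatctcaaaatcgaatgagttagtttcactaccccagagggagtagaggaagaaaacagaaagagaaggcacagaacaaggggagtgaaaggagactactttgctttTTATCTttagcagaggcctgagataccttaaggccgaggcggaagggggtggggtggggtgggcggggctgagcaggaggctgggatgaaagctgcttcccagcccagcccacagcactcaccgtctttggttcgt
Csf2rb2: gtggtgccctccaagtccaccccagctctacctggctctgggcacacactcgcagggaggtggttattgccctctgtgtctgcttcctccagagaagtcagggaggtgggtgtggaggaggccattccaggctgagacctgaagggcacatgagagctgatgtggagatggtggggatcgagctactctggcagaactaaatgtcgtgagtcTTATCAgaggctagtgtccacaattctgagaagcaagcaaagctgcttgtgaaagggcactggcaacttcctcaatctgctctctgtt
Coro1a: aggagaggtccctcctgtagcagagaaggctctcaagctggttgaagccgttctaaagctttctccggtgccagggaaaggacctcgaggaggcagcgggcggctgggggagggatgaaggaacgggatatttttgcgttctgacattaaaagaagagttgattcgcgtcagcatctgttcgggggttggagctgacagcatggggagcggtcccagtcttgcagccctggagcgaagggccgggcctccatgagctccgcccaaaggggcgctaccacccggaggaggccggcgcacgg

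The Alas2 window held 1 such match, AGATAA on the opposite strand at -86 from the start. The Csf2rb2 window held 1 match, TGATAA on the opposite strand at -38. The Coro1a window held none, and none of the 3 windows held TGTGGT or TGCGGT, the letters searched for the RUNX motif on both strands. Over all 27025 promoter windows of the table, one per gene, 30.2% held a GATA match and 22.5% a RUNX match.

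Alas2 (chromosome X, 150547417 to 150570622, GRCm38) stood at 123 FPKM in knockout and 58.3 FPKM in wild-type cells, a log2 ratio of 1.07 with a counting half-width of 0.08. Before estradiol it stood at 2.62 FPKM in knockout and 2.32 FPKM in wild-type cells, a log2 ratio of 0.12. The 2 lines were thus close at 0 h and apart at 24 h. Csf2rb2 (chromosome 15, 78282507 to 78305721) stood at 38.7 FPKM in knockout and 6.04 FPKM in wild-type cells, a log2 ratio of 2.50 with a half-width of 0.12. At 0 h it was low in both lines, at 0.788 FPKM in the knockout and 0.422 FPKM in wild type. Coro1a (chromosome 7, 126699774 to 126704816) stood at 3.57 FPKM in knockout and 17.6 FPKM in wild-type cells, a log2 ratio of -2.03 with a half-width of 0.26. Coro1a was lower in the knockout before estradiol too, at 12.3 FPKM in knockout and 30.2 FPKM in wild-type cells.

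Most genes differed little. In the knockout at 24 h, 64 of 8964 genes (0.714%) were higher by 2-fold or more and 102 (1.14%) were lower. The higher side held 38.6% of these, but 51.2% when ratios were centred on the median of all genes (85 higher, 81 lower) and 48.8% with upper-quartile scaling. The median log2 ratio was -0.09, and 38.1% of genes were above 0, which is the background against which gene lists are read below. Of the 64 and 102, small RNA and predicted loci made up 14 and 20, and 15 of these 34 were listed at 0 in the knockout library and 5 in the wild-type library. Leaving such loci out, 50 of 8373 genes (0.597%) were higher and 82 (0.979%) lower. Of the 62 higher and 94 lower genes with an annotated transcript length, 39 and 53 had a counting interval that lay wholly past 2-fold. Each interval left out a log2 ratio of 0, which was nearly fixed by the cut on the same ratio and is no support for the calls. The 82 include Hist1h4n, one of many near-identical histone genes, listed near 0 in the knockout and at 1942 FPKM in wild type.

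**Figure D1:**
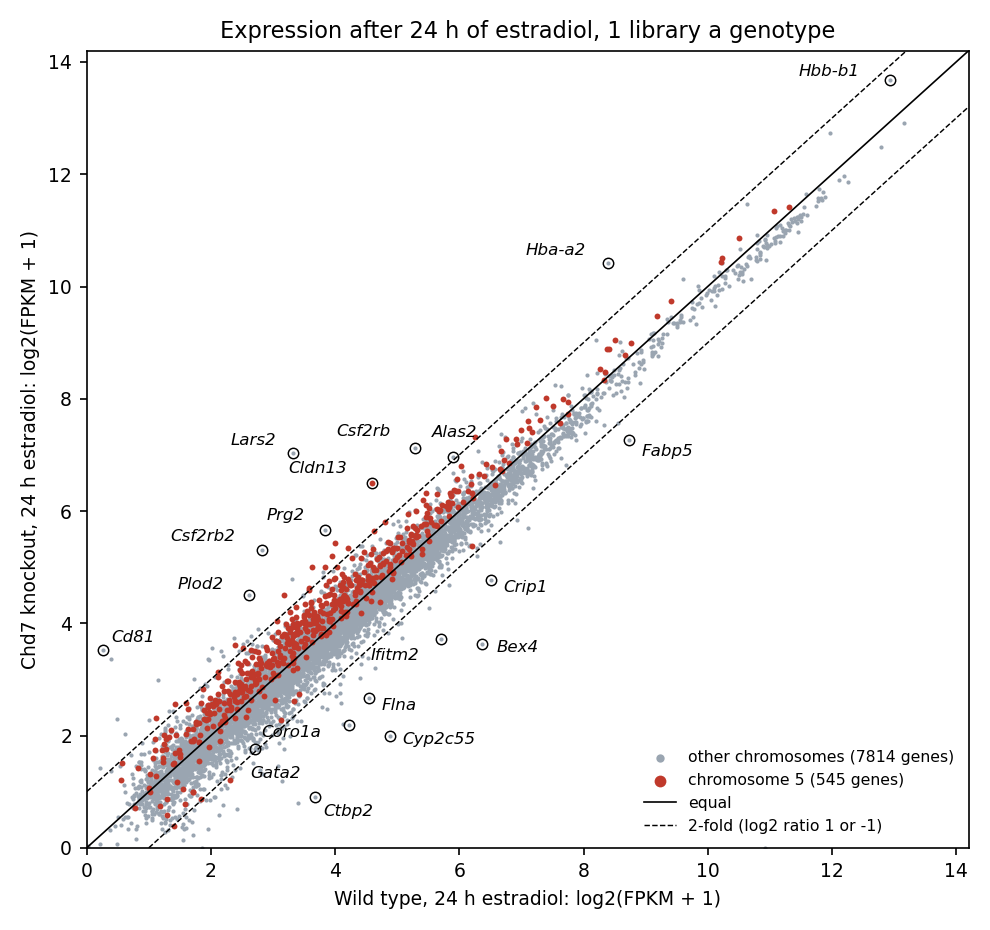
Each point is a gene, with log2(FPKM + 1) in wild-type cells on the x axis and in Chd7 knockout cells on the y axis, both after 24 h of estradiol. Dashed lines mark 2-fold; the 545 genes of chromosome 5 (red) lie mostly above the line of equality, with a median log2 ratio of 0.34.

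Where the higher of the pair reached 5 FPKM, Lars2, the mitochondrial leucyl-tRNA synthetase gene, led the higher side with 130.0 FPKM in knockout and 9.05 FPKM in wild-type cells, a log2 ratio of 3.70. At 0 h Lars2 stood at 42.6 FPKM in knockout and 27.4 FPKM in wild-type cells. Cd81, a tetraspanin of the cell surface, followed at 10.4 FPKM in knockout and 0.197 FPKM in wild-type cells. Its levels at 0 h, 11.1 FPKM in the knockout and 0.378 FPKM in wild type, were apart to the same extent. Cox6b2, a cytochrome c oxidase subunit known from testis, stood at 9.24 FPKM in knockout and 0.312 FPKM in wild-type cells. Plod2, a lysyl hydroxylase of collagen, stood at 21.7 FPKM in knockout and 5.09 FPKM in wild-type cells, and was apart at 0 h as well, with a log2 ratio of 2.17.

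Other genes were close between the lines, or low in both, at 0 h and higher in the knockout at 24 h. Nxpe2 stood at 10.8 FPKM in knockout and 3.07 FPKM in wild-type cells, against 1.94 FPKM in knockout and 1.95 FPKM in wild-type cells at 0 h. Slc38a5, a glutamine transporter, stood at 10.3 FPKM in knockout and 3.49 FPKM in wild-type cells, a log2 ratio of 1.33, and was at 0.152 FPKM in knockout and 0.1502 FPKM in wild-type cells at 0 h. Fam132b encodes erythroferrone, the hormone by which erythroblasts lower hepcidin, and stood at 11.3 FPKM in knockout and 4.702 FPKM in wild-type cells. Ptdss2, which makes phosphatidylserine, stood at 26.7 FPKM in knockout and 8.84 FPKM in wild-type cells, a log2 ratio of 1.49 at 24 h and 0.23 at 0 h. In all, 16 of the 50 higher genes differed by less than 1.2-fold at 0 h, where a gene near 0 FPKM in both lines cannot differ more on this scale. So small a difference was common among all genes. On every chromosome but 5, the 25th to 75th percentiles of the 0 h log2 ratios lay between -0.255 and 0.0394, within 1.2-fold.

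Most globin, heme synthesis and membrane skeleton genes had ratios above 0, though few reached 2-fold. Of 6 measured globin genes 5 were above 0, with a median log2 ratio of 0.75, against 38.1% of all genes and a median of -0.09. Hbb-b1, the major adult beta chain row, stood at 13127 FPKM in knockout and 7865 FPKM in wild-type cells. Hbb-b2 stood at 6783 FPKM in knockout and 3991 FPKM in wild-type cells. These were the most abundant of the measured globins in both libraries, and the sum of these near-identical rows was 19910.1 FPKM in knockout and 11856 FPKM in wild-type cells, a log2 ratio of 0.75. At 0 h that sum was 895 FPKM in knockout and 549 FPKM in wild-type cells, a log2 ratio of 0.70, and the globin list had a median of 0.35. Hbq1b, a theta globin, went the other way at 6.200 FPKM in knockout and 10.01 FPKM in wild-type cells.

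The alpha-globin genes Hba-a1 and Hba-a2 share 86.9% of the 50-base stretches of Hba-a2, so the split of fragments between them is uncertain. Hba-a2 was listed at 1369.5 FPKM in knockout and 337 FPKM in wild-type cells. Hba-a1 was listed at 2827 FPKM in knockout and 1594 FPKM in wild-type cells. Their sum was 4196 FPKM in the knockout and 1931 FPKM in wild type, a log2 ratio of 1.12. The sum still depends on the split through transcript length, 554 bases for Hba-a2 and 699 for Hba-a1. At 0 h the sum was 356 FPKM in the knockout and 145 FPKM in wild type, a log2 ratio of 1.29. The embryonic beta-like gene Hbb-bh1 was low, at 6.37 FPKM in knockout and 5.62 FPKM in wild-type cells.

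Of 22 heme synthesis genes 18 were above 0, with a median of 0.23. At least 2-fold higher were 2, against 0.714% of all genes, and none was lower by that much. Besides Alas2 this was Slc25a37, the mitochondrial iron importer mitoferrin 1, at 29.1 FPKM in knockout and 12.97 FPKM in wild-type cells. Tmem14c, which carries the heme precursor protoporphyrinogen into the mitochondrion, stood at 527 FPKM in knockout and 294 FPKM in wild-type cells. Abcb10, a mitochondrial transporter of erythroid cells, stood at 219 FPKM in knockout and 128 FPKM in wild-type cells. The later enzymes were closer to equal: Fech, which inserts iron, stood at 133 FPKM in knockout and 115 FPKM in wild-type cells, and Cpox at 339.5 FPKM in knockout and 339 FPKM in wild-type cells. Alas1, the housekeeping form of the first enzyme, had the lowest log2 ratio of the list (-0.38), at 4.38 FPKM in knockout and 6.01 FPKM in wild-type cells. At 0 h 10 of the 22 genes were above 0 and the median was -0.03.

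Of 29 membrane skeleton and surface genes 23 were above 0, with a median of 0.31, against 0.05 at 0 h. Dmtn, the actin-bundling protein dematin, stood at 11.9 FPKM in knockout and 4.99 FPKM in wild-type cells. It was the 1 member past 2-fold, against 0.714% of all genes higher. Slc4a1, the anion exchanger band 3, stood at 40.7 FPKM in knockout and 20.6 FPKM in wild-type cells, with 0.235 FPKM in knockout and 0.102 FPKM in wild-type cells at 0 h. Sptb, beta-spectrin, stood at 227 FPKM in knockout and 132 FPKM in wild-type cells, and Ank1, the ankyrin that ties spectrin to band 3, at 36.04 FPKM in knockout and 21.9 FPKM in wild-type cells. The lower end held Slc2a1, the glucose transporter GLUT1, at 34.9 FPKM in knockout and 58.2 FPKM in wild-type cells, and Bsg, basigin, at 167 FPKM in knockout and 228 FPKM in wild-type cells.

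Iron genes were mixed, with 9 of 17 above 0, a median of 0.08 and none past 2-fold. Tfrc, the transferrin receptor, stood at 516 FPKM in knockout and 386 FPKM in wild-type cells. Fth1, ferritin heavy chain, stood at 437 FPKM in knockout and 380.2 FPKM in wild-type cells. Tfr2, the second transferrin receptor, stood at 19.9 FPKM in knockout and 25.5 FPKM in wild-type cells, and Hmox1, heme oxygenase, at 10.4 FPKM in knockout and 15.4 FPKM in wild-type cells.

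Among 29 erythroid regulators 20 were above 0, against 38.1% of all genes, and 2 were at least 2-fold higher, against 0.714%. Those 2, both on chromosome 5, were Eif2ak1, the heme-regulated kinase of translation, at 39.6 FPKM in knockout and 17.5 FPKM in wild-type cells, and Mafk, a small MAF partner of NF-E2, at 49.1 FPKM in knockout and 23.6 FPKM in wild-type cells. Away from that chromosome, 17 of 26 were above 0 and the median was 0.04. Zfpm1, the GATA1 cofactor FOG1, stood at 101 FPKM in knockout and 58.8 FPKM in wild-type cells, and Bach1, a heme-binding repressor, at 11.1 FPKM in knockout and 5.704 FPKM in wild-type cells. The Gata1 row stood at 63.7 FPKM in knockout and 38.2 FPKM in wild-type cells, and the lines differed at 0 h too, with a log2 ratio of 0.57. Reads of the introduced fusion can fall in this row, and their share in it was not tested. Gfi1b, Epor and Nfe2 were near equality, with log2 ratios of 0.05, -0.06 and -0.18.

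**Figure D2:**
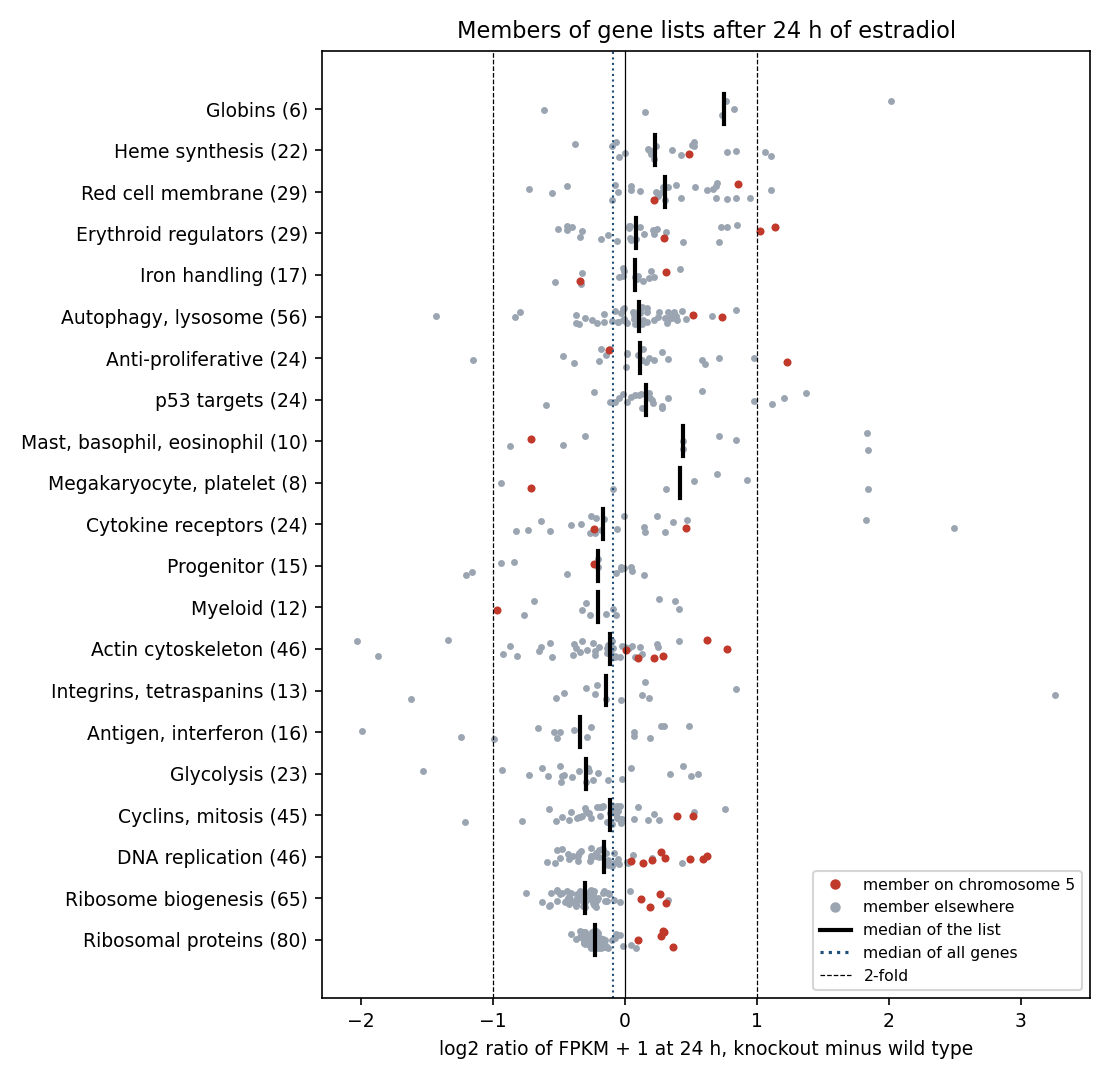
For most of the 28 gene lists with measured members, points are the log2 ratios of list members, knockout minus wild type at 24 h. List medians are marked and chromosome 5 members are red. The antioxidant, carbonic anhydrase, amino acid stress, cholesterol, chromatin remodeler, RUNX and non-coding RNA lists are not drawn. Globin, membrane skeleton and heme synthesis lists have medians of 0.75, 0.31 and 0.23, ribosome biogenesis a median of -0.30, and the all-gene median is -0.09.

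Both beta chains of the interleukin-3 receptor family were higher in the knockout. Csf2rb, the common beta chain that also serves the interleukin-5 and GM-CSF receptors, stood at 138 FPKM in knockout and 38.2 FPKM in wild-type cells, a log2 ratio of 1.83. Csf2rb and Csf2rb2 lie side by side on chromosome 15 and share 18.4% of the 50-base stretches of Csf2rb, and their sum was 177 FPKM in the knockout and 44.2 FPKM in wild type. The sum had a log2 ratio of 1.97 at 24 h and 0.74 at 0 h. The alpha chains that pair with them went no such way. Il3ra stood at 3.82 FPKM in knockout and 6.13 FPKM in wild-type cells, Il5ra at 0.160 FPKM in knockout and 0.158 FPKM in wild-type cells, and Csf2ra at 0.429 FPKM in knockout and 0.508 FPKM in wild-type cells.

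Of the 24 cytokine receptor and JAK-STAT genes measured, 9 were above 0 (37.5%), a share near the 38.1% of all genes. The median was -0.17, against -0.09 for all genes. Stat5a, a transcription factor downstream of these receptors, had the lowest log2 ratio (-0.82), at 21.5 FPKM in knockout and 38.8 FPKM in wild-type cells. Stat5b stood at 33.2 FPKM in knockout and 29.9 FPKM in wild-type cells. Epor, the erythropoietin receptor, was near equal at 30.7 FPKM in knockout and 32.1 FPKM in wild-type cells. Kit, the receptor for stem cell factor, stood at 17.1 FPKM in knockout and 20.4 FPKM in wild-type cells at 24 h and at 61.3 FPKM in knockout and 39.4 FPKM in wild-type cells at 0 h. Pim1, a kinase induced through STAT5, stood at 127 FPKM in knockout and 103 FPKM in wild-type cells.

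Prg2, the eosinophil granule major basic protein, stood at 49.7 FPKM in knockout and 13.2 FPKM in wild-type cells, and its neighbour Prg3 at 10.4 FPKM in knockout and 5.38 FPKM in wild-type cells. Tbxas1, thromboxane synthase, stood at 6.93 FPKM in knockout and 1.21 FPKM in wild-type cells. These 3 genes were at or below 2.88 FPKM in both lines at 0 h. Other eosinophil genes did not reach a mean of 1 FPKM. Epx stood at 0.238 FPKM in knockout and 0.191 FPKM in wild-type cells, and Ear2 was listed at 0 in both. The list also held genes that were lower, with Cpa3, a mast cell protease, at 0.561 FPKM in knockout and 1.16 FPKM in wild-type cells and Il1rl1, the interleukin-33 receptor, at 1.45 FPKM in knockout and 3.47 FPKM in wild-type cells. At 0 h Cpa3 had stood at 24.6 FPKM in the knockout and 11.2 FPKM in wild type. Of the list of mast cell, basophil and eosinophil genes, 10 of 32 were measured and 6 of these were above 0, and the list summed to 86.4 FPKM in the knockout and 41.9 FPKM in wild type. Prg2 held most of the difference, and without Prg2, Prg3 and Tbxas1 the other 29 genes summed to 19.3 FPKM in the knockout and 22.1 FPKM in wild type.

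Markers of other blood cells were sparse. Of 37 myeloid genes 12 were measured, 3 above 0, and the summed level was 140 FPKM in the knockout and 167 FPKM in wild type, most of it Cyba and Laptm5. Mpo, Elane and S100a8, defining genes of neutrophil precursors, were listed at 0 in both 24 h libraries. Of 29 megakaryocyte genes 8 were measured, with a summed level of 69.9 FPKM in the knockout and 64.1 FPKM in wild type, while Ppbp and Vwf were listed at 0 in both. No lymphoid gene of 24 and no fibroblast, endothelial or epithelial gene of 17 was measured, and 21 and 15 of these were at 0 in both 24 h libraries. In RNA from whole cultures, fewer cells of a type and less RNA per cell cannot be told apart.

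**Figure D3:**
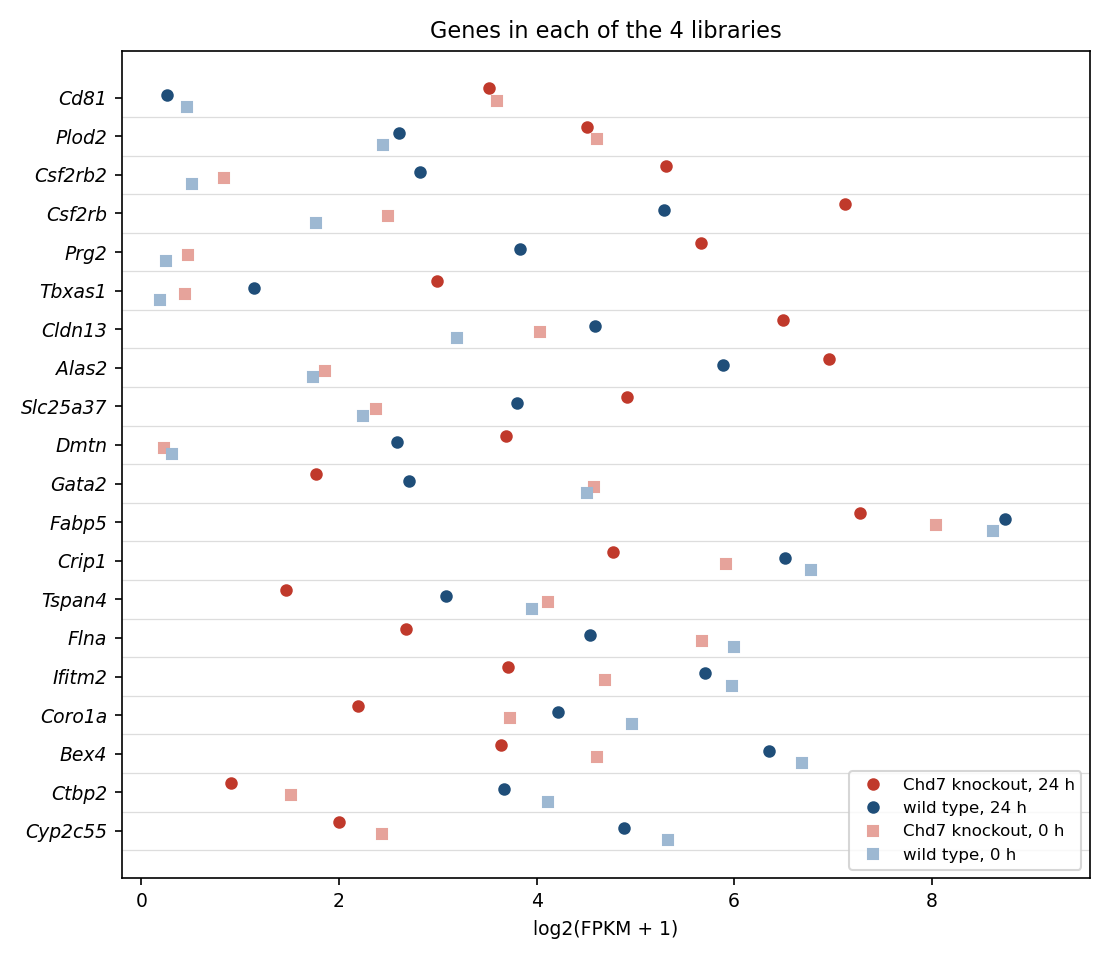
Named genes run down the page, with log2(FPKM + 1) on the x axis and 1 mark for each of the 4 libraries (red knockout, blue wild type, circles at 24 h, squares at 0 h). Csf2rb2, Prg2 and Alas2 separate the lines at 24 h, while Cd81, Cyp2c55 and Ctbp2 separate them at both times.

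The lower side was led by genes that were low in the knockout at both times. Cyp2c55, a cytochrome P450, stood at 3.001 FPKM in knockout and 28.5 FPKM in wild-type cells, with log2 ratios of -2.88 at 24 h and -2.89 at 0 h. Ctbp2, a corepressor, stood at 0.876 FPKM in knockout and 11.7 FPKM in wild-type cells, with log2 ratios of -2.76 at 24 h and -2.60 at 0 h. Bex4 and Bex1, brain-expressed X-linked genes, stood at 11.4 FPKM in knockout and 81.02 FPKM in wild-type cells, and at 1.27 FPKM in knockout and 7.89 FPKM in wild-type cells. Spint2, a serine protease inhibitor, stood at 3.62 FPKM in knockout and 16.5 FPKM in wild-type cells. Fkbp11, a prolyl isomerase of the endoplasmic reticulum, stood at 0.739 FPKM in knockout and 9.52 FPKM in wild-type cells. Mgmt, which repairs alkylated guanine in DNA, was listed at 0 in the knockout at both times, and stood at 2.61 FPKM in wild type at 24 h and 4.54 FPKM at 0 h.

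Genes of the actin cytoskeleton were lower where they differed most. Of 46 measured, 15 were above 0 (32.6%, against 38.1% of all genes). At least 2-fold lower were 3, against 1.14% of all genes, and none was higher by that much, against 0.714%. The list also had 3 members at least 2-fold lower at 0 h, and its median was -0.12 at 24 h and -0.08 at 0 h. Besides Coro1a, Flna, the actin crosslinker filamin A, stood at 5.39 FPKM in knockout and 22.3 FPKM in wild-type cells, against 50.03 FPKM in knockout and 62.9 FPKM in wild-type cells at 0 h. Capg, which caps actin filaments, stood at 12.4 FPKM in knockout and 32.8 FPKM in wild-type cells. Among them Flna was the one most unlike its value at 0 h, with log2 ratios of -1.87 and -0.33. Outside the list, Myo1g, a myosin of blood cells, stood at 8.25 FPKM in knockout and 24.1 FPKM in wild-type cells, and Crip1, a small LIM-domain protein, at 26.3 FPKM in knockout and 90.4 FPKM in wild-type cells. The 6 actin genes on chromosome 5 were all above 0, with Arpc1a and Arpc3, subunits of the complex that branches actin, at 0.77 and 0.62, while 9 of the other 40 were above 0.

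Some of the lower genes were close between the lines at 0 h. Spn, CD43, stood at 18.4 FPKM in knockout and 44.6 FPKM in wild-type cells, and Ptprcap, a partner of the CD45 phosphatase, at 5.75 FPKM in knockout and 15.8 FPKM in wild-type cells. Cmtm7, a MARVEL-domain membrane protein, stood at 56.2 FPKM in knockout and 121 FPKM in wild-type cells. Tspan4, a tetraspanin, stood at 1.75 FPKM in knockout and 7.47 FPKM in wild-type cells, against 16.4 FPKM in knockout and 14.5 FPKM in wild-type cells at 0 h. Each of these differed by less than 1.2-fold between the lines at 0 h, as did 19 of the 82 lower genes. So small a difference at 0 h was common among all genes outside chromosome 5. Ifitm2, an interferon-induced membrane protein, stood at 12.1 FPKM in knockout and 51.3 FPKM in wild-type cells and was apart at 0 h as well, with a log2 ratio of -1.29. Of 16 antigen presentation and interferon genes 6 were above 0 (37.5%), a share near the 38.1% of all genes. Their median was -0.34, against -0.09 for all genes. Psmb9, an immunoproteasome subunit, stood at 0.376 FPKM in knockout and 2.25 FPKM in wild-type cells, H2-D1, a class I chain, at 28.6 FPKM in knockout and 45.7 FPKM in wild-type cells, and B2m, its light chain, at 204 FPKM in knockout and 169 FPKM in wild-type cells.

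Of 15 progenitor genes 2 were at least 2-fold lower, Vim and Nab2, against 1.14% of all genes, and none was higher, against 0.714%. Above 0 were 3 of the 15, and 8 at 0 h. The median was -0.20, or -0.13 outside chromosome 5, against -0.09 for all genes. Gata2, the factor that GATA1 replaces, stood at 2.403 FPKM in knockout and 5.53 FPKM in wild-type cells, with 22.99 FPKM in knockout and 21.9 FPKM in wild-type cells at 0 h. Lyl1, a basic helix-loop-helix factor of stem cells, stood at 21.7 FPKM in knockout and 39.5 FPKM in wild-type cells. Myb stood at 35.3 FPKM in knockout and 48.2 FPKM in wild-type cells, Vim, vimentin, at 0.865 FPKM in knockout and 3.17 FPKM in wild-type cells, and Nab2, a repressor of EGR factors, at 1.08 FPKM in knockout and 3.796 FPKM in wild-type cells. Spi1, which encodes PU.1, and Myc were near equal, with log2 ratios of -0.06 and -0.03.

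Ratios below 0 were common, since 38.1% of all genes were above 0, or 34.1% of placed genes outside chromosome 5. Most genes of ribosome production and DNA replication were below 0 too. None of them reached 2-fold, against 0.714% of all genes higher and 1.14% lower. Of 65 ribosome biogenesis factors 6 were above 0, with a median of -0.30 against -0.09 at 0 h, and 4 of the 6 lay on chromosome 5. Npm1, nucleophosmin, stood at 1129 FPKM in knockout and 1665 FPKM in wild-type cells, and Heatr1, a factor of ribosomal RNA synthesis, at 19.1 FPKM in knockout and 29.01 FPKM in wild-type cells. Of 80 ribosomal protein genes 7 were above 0, 5 of them on chromosome 5, and the median was -0.23. At 0 h 9 of the 80 were above 0 and the median was -0.17. Of 46 DNA replication genes 13 were above 0 (28.3%), all 8 on chromosome 5 and 5 of the other 38. The median of the 46 was -0.16 at 24 h, against -0.09 for all genes, and -0.09 at 0 h. Mcm5, a helicase subunit, stood at 134 FPKM in knockout and 188 FPKM in wild-type cells. Pold2, a polymerase subunit, stood at 27.7 FPKM in knockout and 42.1 FPKM in wild-type cells. Of 45 mitosis and cyclin genes 9 were above 0 (20%), with a median of -0.11 against -0.09 for all genes. At 0 h 7 of them were above 0 and the median was -0.16. With centred ratios, which put the all-gene median at 0, 44.4% of them were above 0 at 24 h. Ccnb2, a mitotic cyclin, stood at 42.5 FPKM in knockout and 99.6 FPKM in wild-type cells, and was lower at 0 h as well, with a log2 ratio of -1.72. Ccne1 and Ccnd3, cyclins of the entry into S phase, had log2 ratios of 0.76 and 0.52.

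Of 23 glycolysis genes 1 was at least 2-fold lower, Slc2a3, against 1.14% of all genes, and none was higher, against 0.714%. Above 0 were 5 of them, against 38.1% of all genes, and the median was -0.29, against -0.09 for all genes. At 0 h the list median was -0.25. Slc2a3, the glucose transporter GLUT3, stood at 1.47 FPKM in knockout and 6.13 FPKM in wild-type cells, Pgam1, phosphoglycerate mutase, at 259 FPKM in knockout and 401 FPKM in wild-type cells, and Ldha, lactate dehydrogenase, at 1415 FPKM in knockout and 1951 FPKM in wild-type cells. Hk1, a hexokinase, stood at 63.02 FPKM in knockout and 46.3 FPKM in wild-type cells, and Pfkm, a phosphofructokinase, at 23.01 FPKM in knockout and 15.4 FPKM in wild-type cells. Autophagy and lysosome genes were above 0 in 35 of 56 (62.5%, against 38.1% of all genes). Their median was 0.11 at 24 h and -0.09 at 0 h. With centred ratios, which put the all-gene median at 0, 78.6% of them were above 0 at 24 h. Map1lc3a, an LC3 protein of the autophagosome, stood at 5.49 FPKM in knockout and 2.61 FPKM in wild-type cells, and Ctsb, cathepsin B, at 23.3 FPKM in knockout and 14.4 FPKM in wild-type cells. Ctsl, cathepsin L, was the 1 member past 2-fold, against 1.14% of all genes lower. It stood at 0.699 FPKM in knockout and 3.58 FPKM in wild-type cells, and was lower at 0 h as well.

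Of 24 genes, p53 and its targets, 18 were above 0, against 38.1% of all genes. Their median was 0.16 at 24 h and 0.13 at 0 h. The 3 members past 2-fold, all higher, were past it at both times. Of all genes 0.714% were higher at 24 h and 0.435% at 0 h. Trp53inp1, an activator of p53, stood at 9.17 FPKM in knockout and 2.93 FPKM in wild-type cells, Eda2r, a receptor of the TNF family, at 1.68 FPKM in knockout and 0.159 FPKM in wild-type cells, and Zmat3, an RNA-binding protein, at 4.42 FPKM in knockout and 1.503 FPKM in wild-type cells. Ccng1, cyclin G1, stood at 91.8 FPKM in knockout and 60.9 FPKM in wild-type cells, Cdkn1a, the inhibitor p21, at 10.8 FPKM in knockout and 8.71 FPKM in wild-type cells, and Trp53 itself at 19.6 FPKM in knockout and 23.2 FPKM in wild-type cells. Btg2, an antiproliferative target, stood at 7.23 FPKM in knockout and 3.19 FPKM in wild-type cells, with a log2 ratio of 0.14 at 0 h.

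Other chromatin remodelers showed no member past 2-fold, with 7 of 21 above 0 (33.3%, against 38.1% of all genes). Chd4, the helicase of the NuRD complex, stood at 58.98 FPKM in knockout and 83.9 FPKM in wild-type cells, and Chd8, a close relative of CHD7, at 8.91 FPKM in knockout and 7.92 FPKM in wild-type cells. Runx1 stood at 7.24 FPKM in knockout and 6.32 FPKM in wild-type cells, and Cbfb, its partner, at 11.5 FPKM in knockout and 18.6 FPKM in wild-type cells. Of 14 RUNX-related genes 7 were above 0, against 38.1% of all genes. The 2 past 2-fold were Csf2rb and Csf2rb2, against 0.714% of all genes higher. These 2 are neighbours that share 18.4% of the 50-base stretches of Csf2rb, in a list chosen with earlier results known.

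Genes of chromosome 5 were shifted upward as a whole, in the knockout over wild type. Its 545 placed genes had a median log2 ratio of 0.34 and 90.6% of them were above 0. The other chromosomes had medians between -0.15 and -0.06 and shares above 0 between 30.2% and 38.6%. The median ratio on chromosome 5 was 1.37-fold that of the other chromosomes at 24 h and 1.40-fold at 0 h. Along the chromosome, the 11 bins of 10 Mb with at least 15 genes had medians from 0.27 to 0.47 at 24 h, while 182 such bins elsewhere ran from -0.36 to 0.10. The shift was there before estradiol, with bin medians from 0.31 to 0.48 at 0 h. Whether the lines differ in copies of chromosome 5 was not tested.

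**Figure D4:**
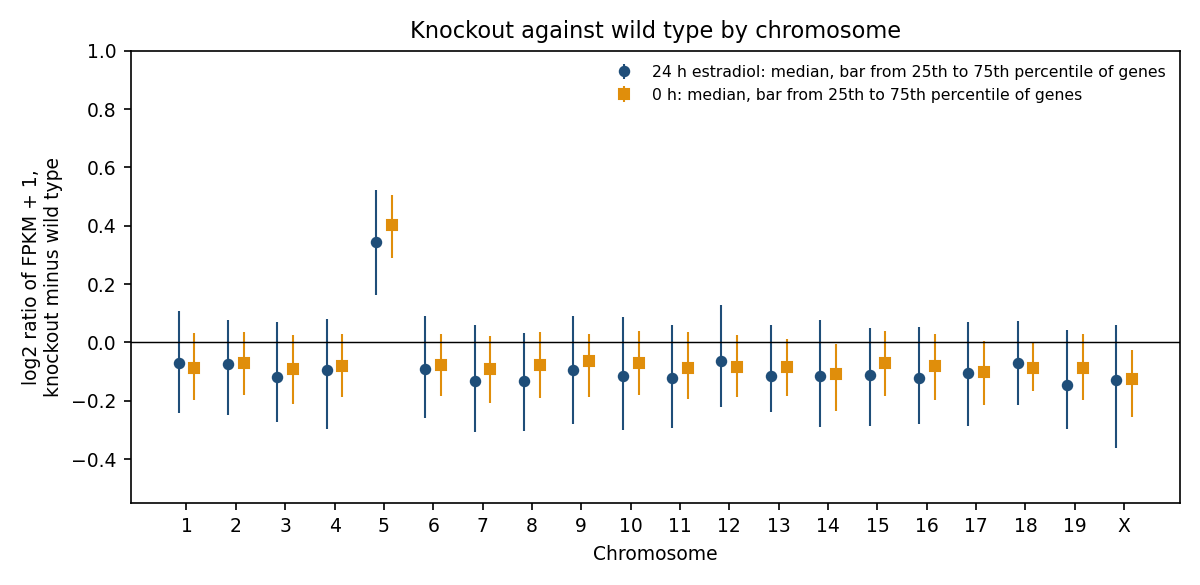
Median log2 ratio of the genes on each chromosome, knockout minus wild type, at 24 h and at 0 h, with bars between the 25th and the 75th percentile of its genes. Chromosome 5 stands at 0.34 at 24 h and 0.40 at 0 h, and the others between -0.15 and -0.06 at both times.

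Chromosome 5 held 16 of the 50 placed higher genes (32%) and 2 of the 81 placed lower ones, Actr3b and Krtcap3. Outside it, 34 of 7814 genes (0.435%) were higher and 79 (1.01%) lower. Of the 16, Cldn13, a claudin that mouse erythroblasts express, stood at 89.1 FPKM in knockout and 23.1 FPKM in wild-type cells and was apart at 0 h too, with a log2 ratio of 0.84. Atp8a1, a phospholipid flippase, stood at 42.1 FPKM in knockout and 14.9 FPKM in wild-type cells, and Slc46a3, a lysosomal transporter, at 31.1 FPKM in knockout and 11.4 FPKM in wild-type cells. Mxd4, a MYC antagonist, stood at 11.2 FPKM in knockout and 4.21 FPKM in wild-type cells. Ache, acetylcholinesterase, was picked after its values had been seen, and stood at 35.9 FPKM in knockout and 14.4 FPKM in wild-type cells, against 2.17 FPKM in knockout and 1.56 FPKM in wild-type cells at 0 h. Over the members of the lists, 39 of 45 chromosome 5 genes were above 0 (86.7%), against 238 of 670 elsewhere (35.5%). The other 6 were Alox5ap, Ccng2, Kit, Ncf1, Pf4 and Tfr2. Globin, p53, interferon, glycolysis and tetraspanin lists held no gene of it.

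The 24 h difference was partly present at 0 h. Before estradiol, 39 genes (0.435%) were past 2-fold on the higher side and 58 (0.647%) on the lower side, or 15 (0.179%) and 46 (0.549%) without small and predicted loci, and 34.6% of all genes were above 0. Among placed genes outside chromosome 5, 13 (0.166%) were higher and 44 (0.563%) lower at 0 h, and 30.1% were above 0, against 34.1% at 24 h. With small and predicted loci left out, 8 genes were higher at both times, which is 16% of the 50 higher at 24 h and 53.3% of the 15 higher at 0 h. They were Cd81, Col18a1, Cox6b2, Eda2r, Hba-a2, Plod2, Trp53inp1 and Zmat3. On the lower side 33 genes were shared, 40.2% of the 82 at 24 h and 71.7% of the 46 at 0 h. None was 2-fold apart in opposite directions, and 46 of the 50 and 73 of the 82 had the same sign at 0 h. Across 8359 placed genes the log2 ratios at the 2 times, which share no library, had a Pearson's r of 0.52 and a Spearman's rho of 0.46, as a description across genes. Over the 7814 of these outside chromosome 5, r was 0.46 and rho 0.38.

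**Figure D5:**
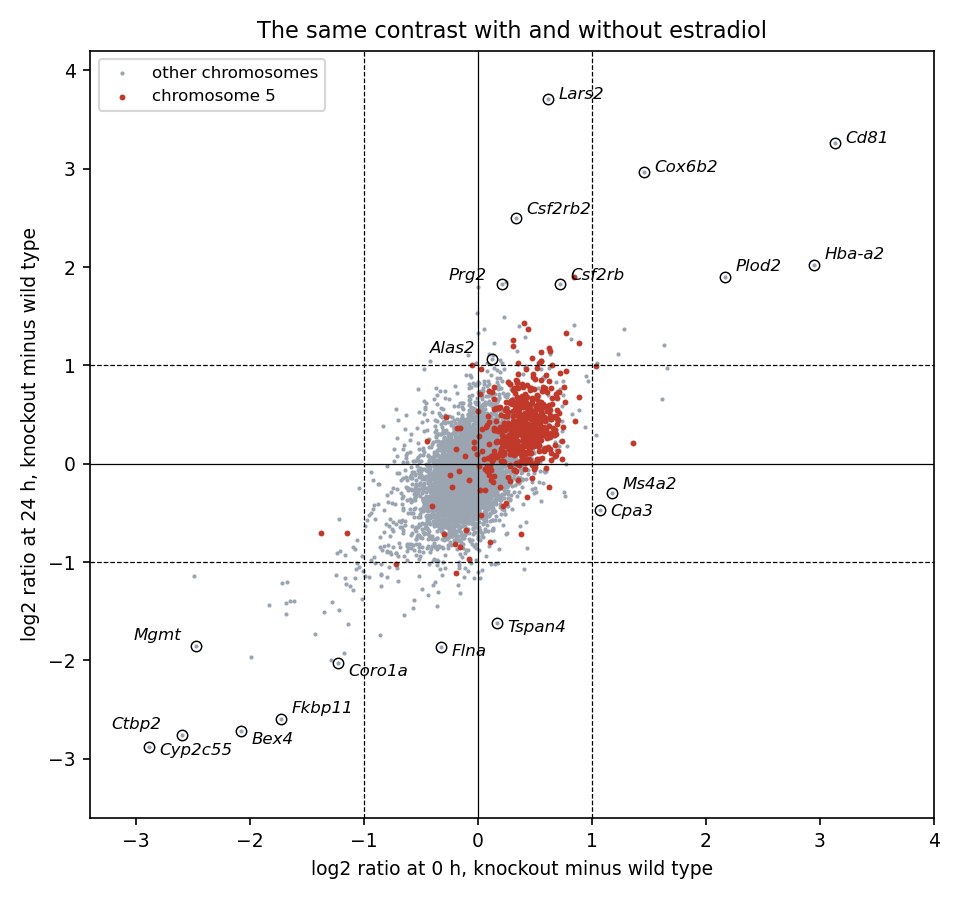
Log2 ratios of knockout to wild type at 0 h (x axis) and 24 h (y axis) for placed genes, chromosome 5 in red, with 3 genes outside the frame. Cyp2c55 and Ctbp2 lie near the diagonal, while Csf2rb2, Prg2, Alas2 and Flna differ mainly at 24 h on this scale. Csf2rb2 and Prg2 were below 1 FPKM in both lines at 0 h, where the added 1 FPKM holds ratios near 0.

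Promoter windows were searched over the genes with an entry in the table. A GATA match was found in 11 of 36 windows of higher genes (30.6%), in 9 of 22 (40.9%) of those outside chromosome 5, in 10 of 59 windows of lower genes (16.9%) and in 17.6% of the 6556 genes compared. A RUNX match was found in 6 of 36 higher (16.7%), 10 of 59 lower (16.9%) and 21.0% of the genes compared. A match is a run of letters in this window and no measured site.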

How the data were processed

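G1ER RNA was sequenced in 4 libraries, 1 per genotype and time, which were grouped by genotype and by the time in the titles. The authors deposited 1 table of FPKM per gene symbol. Per the submitters' processing notes, the tools were Cufflinks 2.2.1, TopHat2 2.0.11, cutadapt and FastQC, and the build was GRCm38 (mm10). Which annotation and which scaling between libraries was used, and how multiply mapped fragments were counted, is not given in the sources used here. A repeated header line in the table was dropped.

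From these values, log2(FPKM + 1) ratios were computed for genes whose mean reached 1 FPKM, with pandas 2.3.3, numpy 2.4.6 and scipy 1.17.1 under Python 3.11.15, and drawn with matplotlib 3.10.9. With 1 library a group no test was run. The counting was tested on simulated data. FPKM holds no total count. Depth was approximated from the FPKM step worth 1 fragment in single-transcript genes of at least 3000 bases (GENCODE lengths). Within 0.05 of a fragment, 58.0% to 63.3% of low values were whole, against 5.72% to 6.40% for other steps. The depths were 16.6 M in knockout and 19.02 M fragments in wild type at 24 h, and 15.72 M and 16.04 M at 0 h in the same order. Positions and promoter windows came from RefSeq (GRCm38.p6), which matched 8409 genes by symbol and 515 by synonym.

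Genes are named by rule: the 15 most higher and 15 most lower whose higher 24 h value reached 5 FPKM, not counting histones, small RNA and predicted loci; Alas2, Csf2rb2 and Coro1a; up to 4 members per direction of each list, and any member past 2-fold; and up to 10 per direction past 2-fold at both times, or at 24 h alone and under 1.2-fold at 0 h. Other genes named fall outside this rule. Fech, Cpox, Sptb, Ank1, Stat5b, Pim1, Npm1 and Ldha, among others, are list members picked by hand, with earlier results of these data known. The rest are said to be chosen after their values were seen, or are given as receptor chains, markers or members of a count. Some members that fall under this rule are not reported here. The 30 lists and the genes of interest were chosen with earlier results of these data known. Pseudocounts, filters, scalings and the removal of small loci or chromosome 5 were varied.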

Additional observations from a re-analysis of the deposited data

Results flagged for a closer look

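Some results had opposite signs at 24 h and 0 h. Each time is 1 library a genotype, and the difference between times was not tested. The myeloid list had a median log2 ratio, knockout minus wild type, of -0.20 at 24 h and 0.16 at 0 h. Mast cell genes were among those below 0 at 24 h and above it at 0 h, with Cpa3 at -0.47 and 1.07 and Ms4a2, a chain of the IgE receptor, at -0.30 and 1.18. The neutrophil collagenase gene Mmp8 had -0.33 at 24 h and 0.76 at 0 h. Pf4, platelet factor 4, had -0.71 and 0.38, and Tfr2, the second transferrin receptor, had -0.34 and 0.43. The counting intervals at 24 h included 0 for Pf4 (-1.47 to 0.05) and Ms4a2 (-0.62 to 0.02). In the other direction, Pfkfb4, an enzyme that tunes glycolysis, had 0.50 at 24 h and -0.63 at 0 h. The glycolysis gene Aldoc had 0.34 and -0.28, and Cfl2, a cofilin that severs actin, had 0.41 and -0.29.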

How the results depend on the processing

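No paired analysis was possible because each group is 1 library, and for the same reason no library could be left out. Of the 62 named genes past 2-fold, 30 were still past it with a pseudocount of 5 FPKM. A pseudocount cannot turn the sign of a ratio, and one of 0.1 FPKM can only widen it, so neither was a check. At 24 h the 64 higher and 102 lower genes became 118 and 199 with a pseudocount of 0.1 FPKM and 25 and 40 with 5 FPKM, and the higher ones 35 when the mean had to reach 5 FPKM. At 0 h the 39 higher and 58 lower became 61 and 112, and 25 and 23, under these pseudocounts. There the higher ones were 15 without small and predicted loci, and the lower ones 34 with a mean from 5 FPKM and 1111 with scaling to an equal sum (TPM), under which the all-gene median at 0 h was -0.78. Chromosome 5 minus the others was 0.48 with a pseudocount of 0.1 FPKM, 0.33 with 5 FPKM and 0.28 with no filter. The share of members above 0 was 100% for globins with a mean from 5 FPKM. With centred ratios (all-gene median 0) and with upper-quartile scaling (all-gene median -0.005) it was 44.4% for cyclins and mitosis and 78.6% for autophagy. Without chromosome 5 it was 13.2% for DNA replication, 3.28% for ribosome biogenesis and 2.67% for ribosomal proteins. The chromosome 5 members left out of those lists were all above 0. Scaling to an equal sum divides by the FPKM sum of each library, at 0 h 1604981 in knockout and 923195 in wild type. Small and predicted loci held 69.4% of that sum in knockout and 43.5% in wild type. Apart from such arithmetic and fewer genes under a filter, the cause of these moves was not tested. The larger side of the calls turned with centred ratios at 24 h (85 higher, 81 lower) and with a pseudocount of 5 FPKM at 0 h (25 higher, 23 lower). Depth limits low genes most.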

Other observations

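Cholesterol synthesis and amino acid stress genes were also measured at 24 h. Of 23 cholesterol genes 13 were above 0 with a median log2 ratio of 0.13, and 11 of the 21 outside chromosome 5. Mvk, mevalonate kinase, on chromosome 5, had the highest log2 ratio of them (0.97), at 30.9 FPKM in knockout and 15.3 FPKM in wild-type cells. Of 30 amino acid stress genes 15 were above 0. Asns, asparagine synthetase, stood at 454 FPKM in knockout and 549 FPKM in wild-type cells, and Atf4, the factor that drives it, at 85.2 FPKM in knockout and 111 FPKM in wild-type cells. Car1, a carbonic anhydrase of red cells, stood at 69.7 FPKM in knockout and 118 FPKM in wild-type cells, and Car2 at 579 FPKM in knockout and 554 FPKM in wild-type cells.

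Several small RNA rows were listed at 0 in 1 library of the pair and high in the other. Snord55 was listed at 0 in the knockout and at 4146 FPKM in wild type at 24 h, and at 0 in both at 0 h. Snord8 stood at 897 FPKM in the knockout and was listed at 0 in wild type at 24 h.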
